A study of Mus musculus with 8 samples.

Results

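The core transcription factors of the heart muscle form a small network that turns on the contractile and signalling genes of the developing myocardium. The homeobox factor Nkx2-5, the zinc finger factors Gata4, Gata5 and Gata6, the MADS box factors Mef2a, Mef2c and Srf, the basic helix-loop-helix factors Hand1 and Hand2, and myocardin (Myocd), a coactivator that binds Srf, act on many of the same enhancers and on one another's genes. In the embryonic ventricle, loss of several of these factors is known to leave the chamber wall thin or malformed. The 10 genes were chosen by name, and all 10 of them were found among the 13869 genes measured and among the 13740 tested.

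Polyadenylated RNA was sequenced from ventricles of mouse embryos at E14.5 in 8 libraries. The 4 mutant libraries (Mib1flox; TnT-Cre) carried a floxed allele of Mib1, which encodes a ubiquitin ligase needed by Notch ligands, together with Cre recombinase driven by the cardiac troponin T promoter, so deletion is directed to cardiomyocytes and other cells of the wall keep the gene. The 4 control libraries were wild type (WT), and in each group 16 hearts had been combined into 4 pools. No label ties a pool to a litter, and p values therefore reflect only how much pools of a group varied. The question was whether the core factors differ between the groups, and within how narrow a range each one was held.

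Mib1 itself stood at 106, 103, 95.3 and 96.3 CPM (counts scaled to 1000000 by normalized library size) in mutant replicates 1 to 4 and at 150, 166, 160 and 167 CPM in the wild-type replicates. The groups did not overlap. Mutant over wild type, the log2 value was −0.68 ± 0.06 (SE; adjusted p = 8.62e-06 by limma), with an exact two-sided permutation p of 0.0286, the smallest that 4 against 4 libraries can give. Library depth was 6307634 to 11506082 recovered counts. All 9 cardiomyocyte markers examined were measured, with summed levels of 38600 to 41600 CPM in the mutants and 39700 to 44200 CPM in wild type, and none was called by limma. The nearest to a call was Tnnt2, of cardiac troponin T, at 3390 to 3600 CPM in the mutants and 3870 to 4200 CPM in wild type, without overlap (log2 difference −0.21; limma adjusted p = 0.0658, and 0.0138 to 0.672 over the alternatives). Tnnt2 was called with voom weights (adjusted p = 0.0163), a robust variance model (0.0138), array weights (0.0482) or a minimum mean of 5 CPM (0.0428). After removal of a trend on GC content and transcript length, described below, its difference was −0.1 (limma adjusted p = 0.4) and the groups overlapped. With that trend removed within groups only, it stayed at −0.21 (limma adjusted p = 0.0283). Of 6 skeletal muscle markers 2 were tested, and their summed level was at most 4.49 CPM in any library. Because these are bulk samples, fewer cells of a type and less RNA per cell cannot be told apart.

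None of the 10 core factors differed between the groups at an adjusted p under 0.05 by limma, against 2.24% of all genes tested (0.99% higher and 1.25% lower in the mutants). By limma with voom weights the count was also 0, against 2.3% of genes (0.953% higher and 1.35% lower). At an unadjusted p under 0.05 there were 3 by either method, namely Gata4, Gata6 and Mef2a by limma, against 14.8% of all genes by limma, 6.94% being higher and 7.85% lower. All 3 were higher in the mutants. In all, 6 factors lay above 0 and 4 below, with a median difference of 0.09 on the log2 scale against 0.001 over all genes tested, and a median absolute difference of 0.12 against 0.1. The 95% interval of the difference lay inside a 1.5-fold change in both directions for 10 of the 10 factors, as it did for 79.3% of all genes tested, and inside a 1.25-fold change for 6, namely Gata4, Gata6, Mef2a, Mef2c, Hand2 and Srf, as it did for 53.3%.

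**Figure D1:**
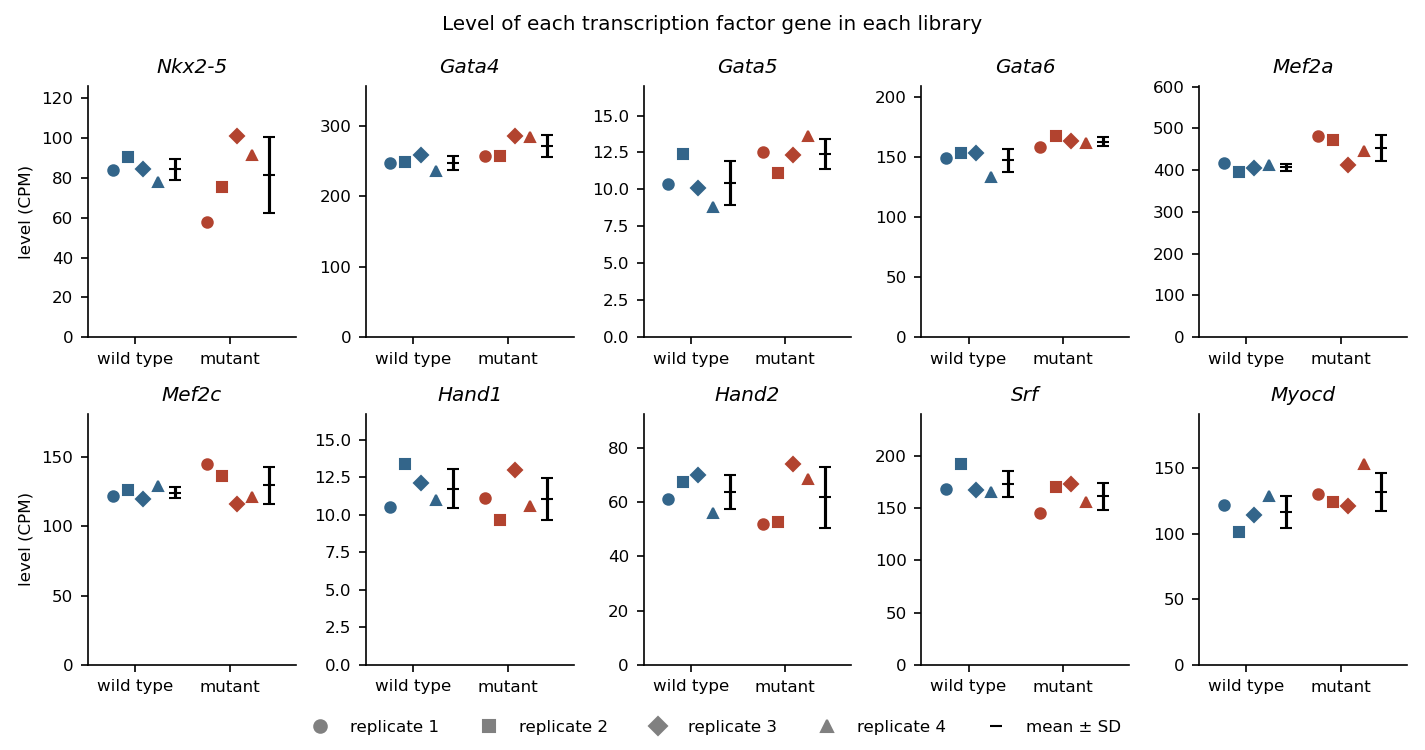
Level in CPM (y axis, starting at 0) of the 10 core factors in each of the 4 wild-type (blue) and 4 mutant (red) libraries; marker shape gives the replicate number, and black bars give the mean ± SD of each group. Gata6 is the only one of the 10 whose groups do not overlap, and Nkx2-5 has the widest mutant group, from 57.8 to 101 CPM.

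All 3 GATA factors had values above 0, and none of them passed the test. Gata4 (ENSMUSG00000021944), needed for ventral heart tube formation and cardiomyocyte growth, stood at 257, 257, 285 and 284 CPM in the mutant replicates 1 to 4 and at 247, 248, 259 and 235 CPM in wild type. Only wild-type replicate 3 reached into the mutant range. The difference was 0.13 ± 0.05 on the log2 scale (SE; adjusted p = 0.267 by limma), with a 95% interval of 0.02 to 0.24, which is 1.01- to 1.18-fold.

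Gata6 (ENSMUSG00000005836), which overlaps with Gata4 in function in the myocardium, stood at 158, 167, 163 and 161 CPM in the mutants and at 149, 153, 153 and 133 CPM in wild type. Every mutant library lay above every wild-type library, which held for 1 of the 10 factors and, in either direction, for 8.89% of all genes tested (4.26% higher and 4.63% lower). The log2 difference was 0.14 ± 0.05 (SE; adjusted p = 0.235 by limma), with an interval of 0.03 to 0.26. Its mutant libraries had the smallest coefficient of variation of any of the factors in that group, 2.52%, against 6.48% in wild type, where replicate 4 was low.

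Gata5 (ENSMUSG00000015627), a factor chiefly of the endocardium and its precursors, was scarce, at 12.5, 11.1, 12.3 and 13.6 CPM in the mutants and 10.4, 12.4, 10.1 and 8.8 CPM in wild type. The groups overlapped through wild-type replicate 2. It had the largest difference of the 10, 0.25 ± 0.12 (SE; adjusted p = 0.361 by limma), with an interval from −0.01 to 0.51, so a rise of up to 1.43-fold lay within it. Its spread between libraries, an SD of 0.167 on the log2 scale, was 1.08 times the 0.155 that counting alone would give, so depth limits what can be said of Gata5. Within each library Gata4 stood to Gata6 at a CPM ratio of 1.54 to 1.77 in the mutants and 1.62 to 1.77 in wild type, and the ranges of the ratio overlapped.

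Mef2a (ENSMUSG00000030557) and Mef2c (ENSMUSG00000005583) encode MADS box factors that drive muscle gene expression. Mef2a stood at 481, 471, 413 and 445 CPM in the mutants and at 416, 396, 405 and 411 CPM in wild type. Mutant replicate 3 alone fell among the wild-type values, and the log2 difference was 0.15 ± 0.05 (SE; adjusted p = 0.183 by limma), with an interval of 0.04 to 0.26. Without mutant replicate 3 the difference was 0.19 and Mef2a was called (limma adjusted p = 0.0382), when 3.47% of all genes were (1.51% higher and 1.96% lower).

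Mef2c, which acts earliest of the MEF2 family in the heart, stood at 145, 136, 116 and 121 CPM in the mutants and at 122, 126, 120 and 129 CPM in wild type. Mutant replicates 1 and 2 lay above the wild-type range and replicate 3 below it, and the difference was 0.05 ± 0.07 (SE; adjusted p = 0.783 by limma). The Mef2a to Mef2c ratio of CPM was 3.33 to 3.69 in the mutants and 3.14 to 3.4 in wild type. Of the other MEF2 genes, Mef2d was measured, at 182 ± 11.4 CPM in the mutants and 197 ± 7.96 CPM in wild type (SD, n = 4), a log2 difference of −0.11 (limma adjusted p = 0.357).

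Nkx2-5 (ENSMUSG00000015579), an early marker of the cardiac lineage that works together with GATA and T-box factors, stood at 57.8, 75.4, 101 and 91.8 CPM in the mutants and at 84, 90.7, 84.6 and 77.9 CPM in wild type. The mutant libraries lay on both sides of the narrow wild-type range, replicates 1 and 2 below it and replicates 3 and 4 above it. The highest mutant library was 1.75 times the lowest. The log2 difference was −0.08 ± 0.13 (SE; adjusted p = 0.837 by limma), and the interval, −0.36 to 0.2, was the widest of the 10 factors.

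Hand2 (ENSMUSG00000038193), chiefly of the right ventricle, endocardium and epicardium, had the same order of mutant libraries, at 51.8, 52.7, 74.1 and 68.5 CPM, against 61.3, 67.3, 70.2 and 56 CPM in wild type. Replicates 1 and 2 were the lowest of all 8 libraries, and mutant replicate 3 was the highest. The difference was −0.06 ± 0.11 (SE; adjusted p = 0.867 by limma), with an interval of −0.3 to 0.18. Hand1 (ENSMUSG00000037335), chiefly of the left ventricle, stood at 11.1, 9.67, 13 and 10.6 CPM in the mutants and at 10.5, 13.4, 12.1 and 11 CPM in wild type, overlapping throughout. Its difference was −0.09 ± 0.12 (SE; adjusted p = 0.798 by limma), and its SD between libraries was 1.09 times that of counting alone. Hand2 exceeded Hand1 by 4.67 to 6.47 times in CPM in the mutants and by 5.01 to 5.82 times in wild type.

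Srf (ENSMUSG00000015605), the serum response factor, stood at 145, 170, 173 and 156 CPM in the mutants and at 168, 192, 167 and 165 CPM in wild type. Wild-type replicate 2 was high and mutant replicate 1 low, and the groups overlapped. The log2 difference was −0.11 ± 0.07 (SE; adjusted p = 0.487 by limma), with an interval of −0.25 to 0.04. Its coactivator Myocd (ENSMUSG00000020542) stood at 130, 124, 121 and 153 CPM in the mutants and at 122, 101, 114 and 129 CPM in wild type. Mutant replicate 4 was the highest and wild-type replicate 2 the lowest library, and the difference was 0.18 ± 0.09 (SE; adjusted p = 0.342 by limma), with an interval of −0.0028 to 0.36. The Myocd to Srf ratio of CPM was 0.827 ± 0.136 in the mutants and 0.678 ± 0.11 in wild type (SD, n = 4), from 0.699 to 0.981 and from 0.525 to 0.781, so the ranges overlapped.

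RefSeq promoter windows (build GRCm38.p6), matched by symbol, were searched for 6 of the 10 factors, Nkx2-5, Gata5, Mef2a, Mef2c, Hand2 and Srf, in 8 windows. Windows of the factors on 1 chromosome were left out of the search, so the 8 need not be all that exist. The 250 bases before each start site were searched on both strands for GATA motifs (AGATAA or its variant AGATAG, and TGATAA or its variant TGATAG), the Nkx2-5 motif AAGTG, the E-box CANNTG that HAND factors can bind, the CArG box of Srf and the MEF2 site. The Srf and Hand2 windows are shown because they hold sites named for a member of this set that the searched windows of the other factors lack. They read as follows, with the CArG boxes of Srf and the GATA motifs of Hand2 in capitals.
Srf, chr17:46556163-46556412, minus strand: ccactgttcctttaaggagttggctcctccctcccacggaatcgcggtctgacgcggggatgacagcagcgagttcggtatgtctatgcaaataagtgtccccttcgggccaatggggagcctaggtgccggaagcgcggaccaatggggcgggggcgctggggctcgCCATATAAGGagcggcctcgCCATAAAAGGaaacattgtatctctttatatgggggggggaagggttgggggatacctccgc
Hand2, chr8:57320733-57320982, plus strand: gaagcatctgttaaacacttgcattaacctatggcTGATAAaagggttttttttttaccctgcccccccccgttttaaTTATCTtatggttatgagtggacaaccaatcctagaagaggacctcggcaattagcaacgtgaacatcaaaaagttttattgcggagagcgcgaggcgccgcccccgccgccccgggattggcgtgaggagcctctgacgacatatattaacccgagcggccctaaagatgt
Srf held 2 CArG boxes, starting 82 and 62 bases before the start site, and 1 AAGTG. A CArG box occurred in 1.47% of the 32851 windows of all genes. Hand2 held 2 GATA motifs, starting 215 and 172 bases before its start, where 26.5% of all windows had at least 1, and also 1 AAGTG (40.7% of windows) and 2 E-boxes (66.2%), of which 1 overlaps the AAGTG. None of the 8 windows held a MEF2 site, which occurred in 2.92% of all windows. These matches describe the letters only. Srf and Hand2 were among the 4 factors whose difference lay below 0, none of which was called. Nkx2-5, whose window held neither a CArG box nor a GATA motif, was another. A link between sites and differences was not tested.

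Levels were compared between genes only per kilobase of the longest protein-coding transcript. In wild type Mef2a (73.5 ± 1.57 CPM per kilobase; SD, n = 4), Gata4 (72.7 ± 2.89) and Srf (66.2 ± 4.72) came first, and neighbours in that order overlapped between libraries. Nkx2-5 followed at 55.3 ± 3.43 and Gata6 at 45.5 ± 2.95 CPM per kilobase, each separate from its neighbours. Hand2 at 27.1 ± 2.7, Myocd at 22.8 ± 2.4 and Mef2c at 19.8 ± 0.602 overlapped in sequence, and Hand1 at 6.18 ± 0.681 and Gata5 at 3.18 ± 0.459 CPM per kilobase were the lowest. In the mutants the means kept this order, at 81.7 for Mef2a, 79.7 for Gata4, 61.5 for Srf, 53.4 for Nkx2-5, 50.2 for Gata6, 26.3 for Hand2, 25.8 for Myocd, 20.6 for Mef2c, 5.83 for Hand1 and 3.77 CPM per kilobase for Gata5. The mutant libraries of Nkx2-5, from 37.9 to 66.2 CPM per kilobase, covered the mutant ranges of Srf (55.3 to 66) and Gata6 (48.8 to 51.8). Nkx2-5 was thus not separate from these neighbours in the mutants. Over the union of all exons, which is much longer for Mef2a, Mef2c and Gata6, Mef2a had 27.7, below Nkx2-5 at 49, and Gata4 at 63.3 CPM per kilobase was first in wild type.

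**Figure D2:**
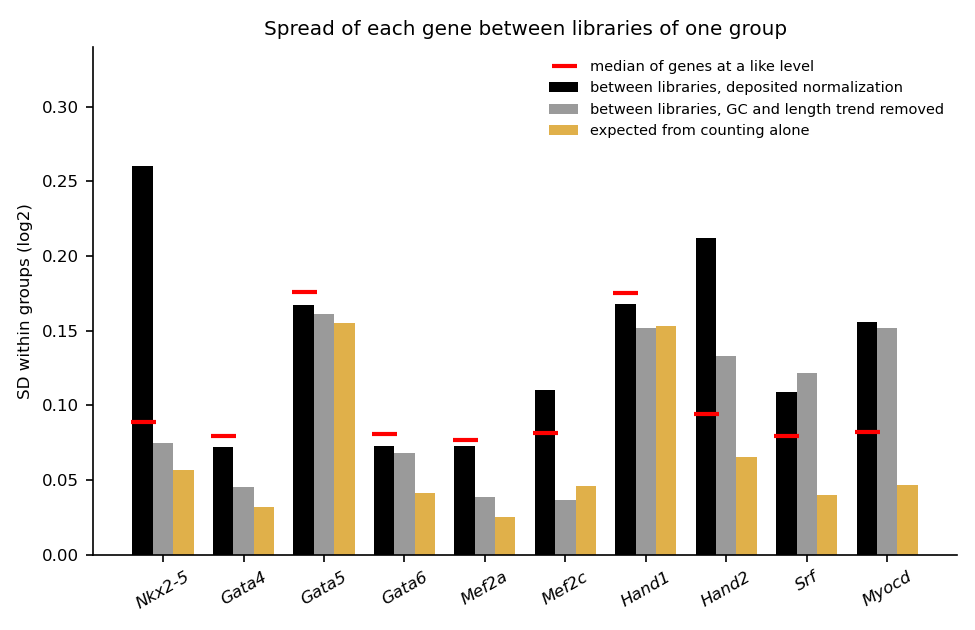
SD between libraries within groups on the log2 scale (y axis, from 0) for each of the 10 factors, with the deposited normalization (black), after removal of the GC and length trend (grey) and as counting alone would give (yellow); red marks give the median SD of tested genes at a like level. Nkx2-5 and Hand2 stand far above their marks with the deposited normalization, and Gata5 and Hand1 lie close to counting error.

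With the deposited normalization the factors differed in how tightly they were held within a group. Nkx2-5 had an SD between libraries of 0.26 on the log2 scale, 4.57 times the SD from counting, and 99.1% of the 2105 tested genes within 0.5 log2 units of its level had a smaller one. For Hand2 the SD was 0.212 (98.3% of genes at a like level were smaller) and for Myocd 0.156 (94.5%). Mef2c at 0.11 (76.9%) and Srf at 0.109 (74.3%) were intermediate. Gata4 at 0.072 (42.2%), Gata6 at 0.0729 (41.3%) and Mef2a at 0.0728 (44.9%) lay near the middle of genes at their level, as did Gata5 (43.4%) and Hand1 (44.2%). For Nkx2-5 the spread sat in the mutants, with a coefficient of variation of 23.4% against 6.21% in wild type, and likewise for Mef2c, with 10.3% against 3.05%. That difference in spread was not tested.

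The deviations of the libraries from their own group mean ran in opposite directions in Nkx2-5 and the MEF2 genes. Mutant replicate 1 lay 0.47 below the group mean (−0.47 on the log2 scale) for Nkx2-5 and −0.24 for Hand2, but 0.09 above it for Mef2a and 0.17 for Mef2c. Mutant replicate 3 was the mirror image, at 0.34 for Nkx2-5, 0.28 for Hand2, −0.13 for Mef2a and −0.15 for Mef2c. Over the 8 libraries the deviations of Nkx2-5 correlated with those of Hand2 at a Pearson r of 0.87 and of Gata4 at 0.79, and with those of Mef2a at −0.9 and of Mef2c at −0.93. These points share their libraries and are given as a description.

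The same libraries differed in base composition. Across 12715 genes with a transcript sequence (92.5% of those tested), the deviation of mutant replicate 1 correlated with the GC content of the transcript at r = −0.5, that of mutant replicate 3 at 0.35, of mutant replicate 4 at 0.24 and of wild-type replicate 4 at −0.25, while the other 4 libraries lay between −0.06 and 0.13. Genes are not independent replicates in these values. Nkx2-5 has 67.1% GC in its longest transcript, Srf 64.4% and Hand2 59.3%, Gata4, Hand1, Gata5 and Gata6 have 56.5% to 57.4%, Myocd has 49.9%, and Mef2a and Mef2c have 42% and 40.8%. After a smooth trend on GC content and transcript length was removed from each library, an analysis chosen after the data were seen, the SD of Nkx2-5 was 0.075, which is 3.46 times smaller, and that of Mef2c 0.0367, 2.98 times smaller. The SD of Hand2 was 0.133 and that of Mef2a 0.0389, whereas Myocd at 0.152 and Gata5 at 0.161 hardly moved and Srf was larger, at 0.122. The order of tightness changed with this step. Of genes at a like level, 98.6% then had a smaller SD than Myocd, 95.9% than Srf and 94.9% than Hand2. The share was 65.1% for Gata6, 59.3% for Nkx2-5, 49.8% for Gata5 and 42.5% for Hand1. It was 29.8% for Gata4, 19.6% for Mef2a and 9% for Mef2c. Over all genes with a sequence the median SD went from 0.127 to 0.108. The correlation of Nkx2-5 was then 0.15 with Hand2 and 0.08 with Mef2a. With Mef2c it was −0.39, with Gata4 it changed sign to −0.42, and with Gata6 it went from 0.33 to −0.89.

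**Figure D3:**
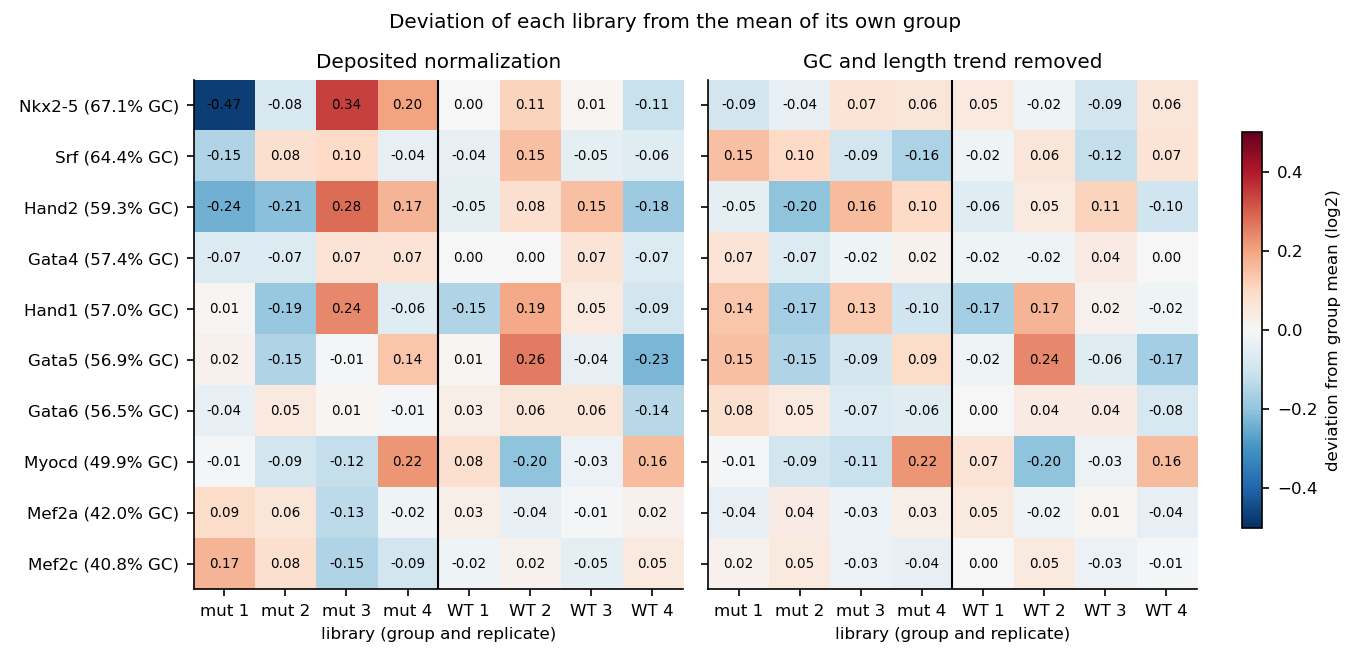
Deviation of each library from the mean of its own group (colour and printed number, log2) for the 10 factors, ordered by the GC content of the transcript, before (left) and after (right) removal of the GC and length trend. Mutant replicates 1 and 3 have opposite colours at the top and bottom of the left panel, from −0.47 for Nkx2-5 to 0.17 for Mef2c in replicate 1.

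With that trend removed, 2 of the 10 factors were called, against 4.68% of the 12715 genes tested in that fit (2.49% higher and 2.19% lower). Gata4 was higher in the mutants by 0.18 ± 0.04 on the log2 scale (SE; adjusted p = 0.01 by limma), with an interval of 0.1 to 0.26, and it was called each time when the removal was repeated with 1 of the 8 libraries omitted. Gata6 was higher by 0.19 ± 0.05 (SE; adjusted p = 0.0198 by limma), but was called in 4 of those 8 repeats (adjusted p up to 0.0712 by limma), its call being lost without mutant replicate 1 or 2 or without wild-type replicate 1 or 4. Groups did not overlap for 3 factors, Gata4, Gata6 and Mef2a, against 9.94% of genes. When the trend was removed within each group only, so that a trend common to a group remains, Gata4 at 0.13 and Mef2a at 0.15 were called (limma adjusted p = 0.0464 and 0.0162), against 7.6% of genes (3.7% higher and 3.89% lower), and Gata6 was not. Removal within groups narrows the spread but leaves the group means as they were. Its p values can therefore be too small, and its calls are given as a description. With the first removal Nkx2-5 stood at −0.01, in an interval of −0.11 to 0.1, and Mef2c at −0.02, in an interval of −0.11 to 0.06.

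**Figure D4:**
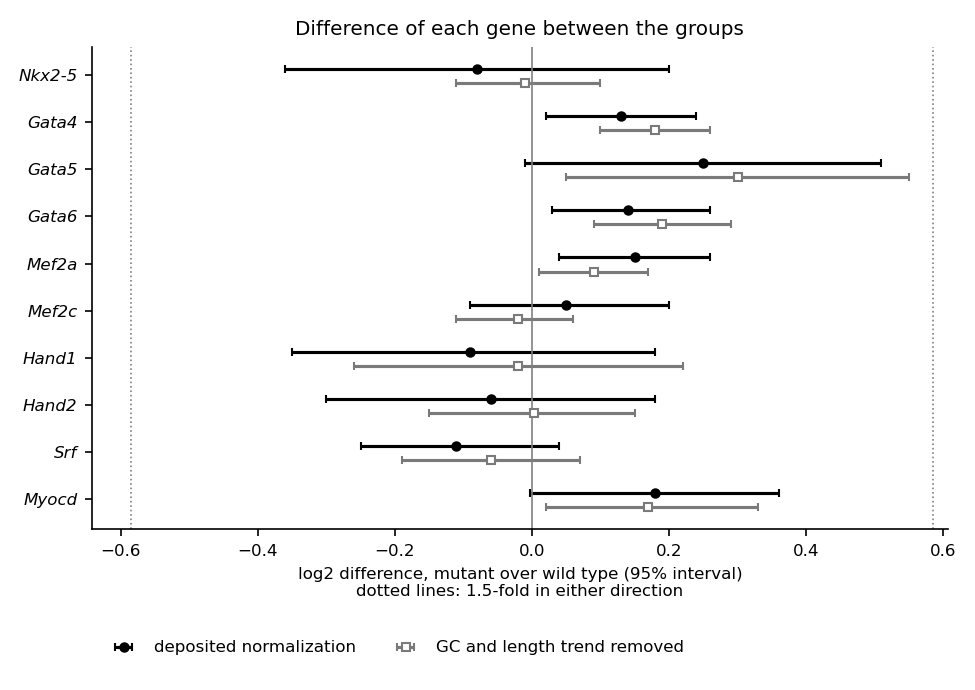
Log2 difference of mutant over wild type (x axis) with its 95% interval for each of the 10 factors, with the deposited normalization (black circles) and after removal of the GC and length trend (grey squares). All 10 black intervals lie between the dotted lines of a 1.5-fold change, and the interval of Nkx2-5 narrows from −0.36 to 0.2 to −0.11 to 0.1.

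Partners and targets of the core factors were read from lists of general knowledge, chosen with earlier results of these data known. Counts called in a list are therefore set beside the share of all genes as a description only. Each called gene was tested again with every library omitted in turn. Of 17 other cardiac transcription factors tested, 3 rose and 1 fell, where 0.99% of all genes were called higher and 1.25% lower, and the median was 0.05 against 0.001 over all genes. Tbx20, a T-box factor of chamber myocardium, rose by 0.41 on the log2 scale, from 311 ± 6.94 to 414 ± 27.9 CPM (SD, n = 4; limma adjusted p = 5.74e-04), and kept its call in all 8 repeats. Tbx3, a T-box factor of the conduction system, rose by 0.5 and Hey2, a repressor of the compact layer, by 0.25, while its relative Hey1 fell by 0.4. Tbx3 (0.42 to 0.58 over the repeats) passed only when mutant replicate 1 was omitted, and Hey1 (−0.45 to −0.35) only when mutant replicate 3 or wild-type replicate 3 was. Hey2 (0.22 to 0.27) lost its call without mutant replicate 2 or wild-type replicate 1, 2 or 3. After removal of the GC and length trend 4 of the list rose and 2 fell, against 2.49% and 2.19% of all genes.

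Among 22 cofactors of the core set 1 rose, Fhl2, a LIM protein that binds Srf among others, from 218 ± 5.55 to 308 ± 6.6 CPM (SD, n = 4; limma adjusted p = 2.04e-05). It was called in all 8 repeats. A count of 1 in 22 is near the background of 2.24% called in either direction, and the median of the list was −0.05. After trend removal 2 cofactors rose, against 2.49% of all genes. Of the paralogues, Gata2, of endothelial and blood cells, stood at 10.1 ± 0.342 CPM in the mutants and 13 ± 1.05 CPM in wild type (log2 difference −0.36; limma adjusted p = 0.0926), and Gata3 was too low to test, at 0.645 and 1.21 CPM. Beside these, the 12 endothelial and endocardial markers summed to 1220 to 1260 CPM in the mutants and to 1460 to 1490 CPM in wild type, with 6 called lower, Plvap, Vwf, Npr3, Ramp2, Egfl7 and Tek. Of these Tek was called only when mutant replicate 1 was omitted (−0.28 to −0.22 over the repeats), and Egfl7 (−0.43 to −0.31) only when mutant replicate 3 or wild-type replicate 4 was. The 7 erythroid markers tested all lay below 0 (median −0.55), summing to 1460 to 2200 CPM in the mutants and 2220 to 2750 CPM in wild type, with Hba-a1 and Ank1 called. Hba-a1 lost its call in 6 of 8 repeats, all but those without mutant replicate 3 or 4. The 8 macrophage markers also lay below 0 (median −0.73), summing to 51.8 to 64 CPM and 82.3 to 100 CPM, with Lyz2, Tyrobp and C1qc called, of which C1qc kept its call only without mutant replicate 3 or wild-type replicate 2. The part of these cell types in the differences of Gata2, Gata4, Gata5 and Gata6 was not tested.

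Of 24 target genes of Srf and myocardin 2 rose, the smooth muscle actin gene Acta2 by 0.36 and the calponin gene Cnn1 by 0.3 on the log2 scale (limma adjusted p = 0.00614 and 0.0221), and the other 22 were not called, with a median of 0.03. Over all genes 0.99% were called higher. Acta2 was called in all 8 repeats. Cnn1 (0.25 to 0.34) lost its call when mutant replicate 2, or any single wild-type replicate, was omitted. After trend removal 4 of this list rose, against 2.49% of all genes. Acta2 and Cnn1 are also smooth muscle markers, of which the 8 examined summed to 1590 to 1720 CPM in the mutants and 1330 to 1510 CPM in wild type. Without Acta2 and Cnn1 the other 6 summed to 402 to 420 CPM in the mutants and 439 to 458 CPM in wild type, with 2 above and 4 below 0. Abcc9 was the largest part of that sum, at 194 ± 21.1 CPM in the mutants and 244 ± 5.14 CPM in wild type (SD, n = 4). It was called lower at −0.34, and lost its call (−0.38 to −0.26) when mutant replicate 2, or any single wild-type replicate, was omitted. Tagln, also on both lists, lay above 0 at 0.51 (limma adjusted p = 0.0792), with 56.9 ± 12 against 39.7 ± 7.19 CPM. After trend removal Tagln stood at 0.58 and was called (limma adjusted p = 0.00498). The part of the smooth muscle markers in the target list was not tested.

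Of 23 genes known as targets of Nkx2-5, GATA or MEF2 factors, 3 fell and 1 rose, where 1.25% of all genes were called lower and 0.99% higher, and the median was −0.07. Nppa, the gene of atrial natriuretic peptide, fell by 1.6 on the log2 scale, from 1090 ± 36.1 to 362 ± 35.9 CPM (SD, n = 4), and Gja5, of connexin 40, by 1.45, and both were called in all 8 repeats. Xirp2, a Mef2a target of the sarcomere, fell by 1.42 from a low level, 3.36 ± 0.268 to 1.3 ± 0.485 CPM (SD, n = 4), and its call was lost when any single wild-type replicate was omitted. Myl7, the atrial light chain gene, rose by 0.37, and it was called only when mutant replicate 1 or 4 was omitted (0.28 to 0.43 over the repeats). After trend removal 4 of the list rose and 7 fell, against 2.49% and 2.19% of all genes, so the counts depend on that step. Of the 8 genes listed as atrial markers, 1 lay above 0, Myl7, and 7 below (median −0.48). Kcnj3 was called lower by 0.67 and Bmp10 by 2.29 on the log2 scale. In these ventricle libraries Bmp10 stood at 38.2 to 43.3 CPM in wild type and at 7.89 to 9.22 CPM in the mutants. These genes need not be particular to the atria at this stage, and whether ventricular or atrial tissue gave these values was not tested.

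**Figure D5:**
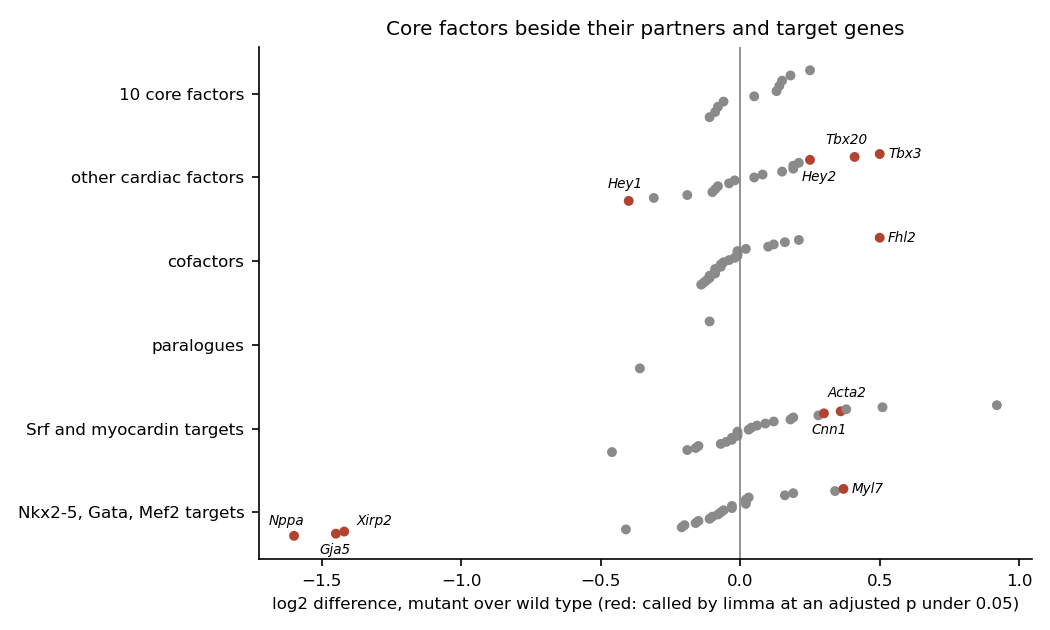
Log2 difference of mutant over wild type (x axis) of each tested gene in the 10 core factors and 5 lists of partners and targets; red points were called by limma at an adjusted p under 0.05. The core factors lie between −0.11 and 0.25, whereas Nppa, Gja5 and Xirp2 lie below −1.4.

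The genes whose level over the 8 libraries was most like that of each factor were found among 9931 genes of at least 10 CPM, by Pearson r of log2 CPM. For Nkx2-5 they were Mxi1 (0.99) and Ctdsp2 (0.98), for Gata4 Arih2 (0.97) and Farp1 (0.96), for Gata5 Hdac3 (0.95) and St3gal5 (0.91), and for Gata6 1110051M20Rik (0.98). For Mef2a they were Ppfibp1 and Prkca (both 0.99), for Mef2c Abce1 (0.99) and Gm14698 (0.98), for Hand1 Brk1 and Tlcd1 (both 0.96) and for Hand2 Tada3 and Smarcc2 (both 0.98). Srf was most like Ergic3 (0.96) and Ppp1r8 (0.94), and Myocd most like Gm13111 (0.97) and Cbr4 (0.93). With 8 libraries the best match of a gene reached a median r of 0.97 over all these genes, so matches of this size are usual.

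Exons of genes on the opposite strand overlap 19.6% of the exon bases of Hand2 (Hand2os1), 7.9% of those of Gata5 (Gata5os), 2.1% of those of Mef2a (Lysmd4) and 1.4% of those of Gata6 (1010001N08Rik). The strand setting used for counting is not stated, so reads from these stretches cannot be told apart.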

How the data were processed

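RNA sequencing of E14.5 mouse ventricles, 4 mutant and 4 wild-type pools, was analysed from 1 deposited table. Per the submitters' processing notes, cutadapt 1.2.1, RSEM 1.16, Bowtie2 0.12.7 (version as named), limma and edgeR were used with genome build mm9. The deposited unit is a score: each value equals a log2 CPM with a prior of 0.5 counts times a constant per library (15.9683 to 16.0735) that makes columns sum to 1000000. Dividing by the constants gave log2 CPM, and 100% of the counts behind them were whole within 0.001 counts. CPM is the recovered count per 1000000 of the deposited normalized library size; 3 counts equal 0.265 to 0.472 CPM, for counting error only. Symbols, transcript lengths and GC content came from GENCODE M21, which matched 13428 of 13869 identifiers.

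Mutant and wild type were set against each other in R 4.3.3 by limma 3.58.1, with group as the only term and a variance trend in eBayes, two-sided, over the 13740 genes whose mean log2 CPM was 0 or more, with Benjamini-Hochberg adjustment over all of them and calls at an adjusted p under 0.05. Intervals are 95% intervals of the moderated statistic for each gene, not adjusted over genes. The GC and length trend was removed with natural splines of 5 terms each, fitted to the deviations of each library. Lists were described by counts and medians with no set test. Named were the 10 members, Mib1, the called members of each list, the paralogues and the 2 genes nearest to each member, of which 1 is not reported here. Members and lists were chosen with earlier results of these data known. Beside 25 listed alternatives, 11 were added after the data were seen. On simulated data of this size and depth (13740 genes), 48% of 1.25-fold and 98% of 2-fold changes were called. That simulation gave all genes the same dispersion and no GC trend, so it is too favourable for genes of wide spread such as Nkx2-5 and Hand2. Its 95% intervals held the true value for 84% (1.25-fold) to 96% (2-fold) of changed genes. With a simulated GC trend, 39.1% of 1.25-fold changes were called before its removal and 50% after. The shares at 1.5-fold (84.8%) and 2-fold (93.9%) were the same before and after. Unchanged genes that were called went from 1 before removal to 7 after. Libraries that share a number correlated at −0.04 to 0.1 after removal of group means, so numbers were not used as pairs.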

Additional observations from a re-analysis of the deposited data

Results flagged for a closer look

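For Srf, wild-type replicate 2 stood apart from the rest of its group, at 192 CPM (1726 counts) against 165 to 168 CPM in the other 3 libraries, with a Dixon ratio of 0.889 (critical value 0.829). It was the only one of 82 groups of 4 libraries, over 41 named genes, to stand apart in this way; chance marks about 1 in 20 such groups. Without that library the log2 difference of Srf was −0.06.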

How the results depend on the processing

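With the deposited normalization 0 of the 10 factors were called, and this held under each other pseudocount, filter, scaling, variance model, voom weighting and threshold tried with all libraries; 306 to 318 genes were called under the other scalings. The numbers of genes called, genes called higher and genes called lower moved without the variance trend (179, 70 and 109), with array weights (490, 226 and 264), and at an adjusted p under 0.01 (119, 54 and 65) or 0.1 (551, 252 and 299). Leaving out 1 library at a time gave 146 (without wild-type replicate 1) to 477 (without mutant replicate 3) called genes, 64 to 208 higher and 81 to 269 lower, with 0 to 1 factors called, Mef2a (0.12 to 0.19) without mutant replicate 3. Nkx2-5 ranged from −0.19 to 0.08, Mef2c from −0.01 to 0.1, Hand2 from −0.15 to 0.02, Hand1 from −0.17 to −0.02 and Gata4 from 0.11 to 0.16. Nkx2-5, Mef2c and Hand2 changed sign without mutant replicate 1 (0.08, −0.01 and 0.02), and Hand2 also without mutant replicate 2 (0.01).

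Removal of the GC and length trend, chosen after seeing the data, gave 595 called genes (316 higher, 279 lower) and 2 factors, Gata4 at 0.18 and Gata6 at 0.19, while Mef2c turned to −0.02 and Hand2 to 0.0026. Removal within groups gave 966 (471 and 495) and 2 factors, Gata4 at 0.13 and Mef2a at 0.15, in a fit whose p values can be too small. The first removal with 1 library left out at a time gave 416 to 638 genes called, 220 to 336 genes called higher and 190 to 302 genes called lower, and 1 to 2 factors, with Gata4 at 0.16 to 0.2, Gata6 at 0.16 to 0.22, Nkx2-5 at −0.04 to 0.03, Mef2c at −0.04 to −0.01, Hand1 at −0.08 to 0.04 and Hand2 at −0.05 to 0.07. The cause of these changes was not tested.

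With the replicate number as a block 240 genes were called (104 higher, 136 lower) and 0 of the factors. Same-numbered libraries share only a number: their correlations were −0.01, −0.04, 0.1 and −0.03, and 0 mutant and 1 wild-type libraries correlated best with their own number. Depth limits Gata5 and Hand1, whose spread was near counting error. Where a factor's interval includes 0, no difference was detectable with 4 pools a group. With the deposited normalization and all libraries, the intervals of Gata4, Gata6 and Mef2a exclude 0. Intervals are not adjusted over genes, and none of these factors was called in that fit.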
